A study of Mus musculus with 16 samples.

Results

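Hemoglobin is built from alpha-type and beta-type globin chains, and the 10 globin genes described here are those of both mouse clusters that the arrays carry under a RefSeq name. They are the embryonic beta-type genes Hbb-y and Hbb-bh1, the embryonic alpha-type gene Hba-x, the adult alpha genes Hba-a1 and Hba-a2, the adult beta genes Hbb-bs, Hbb-bt and Hbb-b2, and 2 minor globins, Hbb-bh2 and Hbq1b. They were chosen by name from a list, through the RefSeq accession that each probe targets, and each gene was represented by its brightest probe. All 10 were among the 37149 genes tested. The arrays hold 12 globin probes, because Hbb-y and Hbb-bh2 have 2 each.

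RNA was taken from 4 populations of mouse embryonic stem (ES) cells differentiated in vitro towards blood. These are Flk1+ mesoderm cells, the 2 stages of the hemogenic endothelium called HE1 (KIT+ Tie2+ CD41-) and HE2 (KIT+ Tie2+ CD41+), and KIT+ Tie2- CD41+ progenitors. The supplementary methods describe HE1, HE2 and progenitors as sorted by these markers at day 2 of the culture grown from Flk1+ cells. From HE1 on, the course described below is thus an order of stages and not of sampling times. The cells were either Sp1+/+ (labelled E14, an ES cell line) or Sp1-/-, in which the Sp1 transcription factor is truncated and has lost its DNA-binding domain. Each of the 8 combinations was hybridized in duplicate to one-color Agilent arrays. These 16 arrays, and not depth, set how precise a comparison could be. Both genotypes went through the same differentiation protocol, and each is represented by 1 ES cell line, so line and culture go with genotype. The series record and the study's text speak of biological replicates and 1 supplementary legend of averaged technical replicates, without saying which arrays are meant. Whether the 2 arrays of a group came from separate differentiations is not clear, and the p-values measure the spread between these arrays, which may be technical. Each genotype had a slide of its own. In a comparison of genotypes the slide therefore cannot be told apart from Sp1, whereas the steps between populations of a genotype were measured within 1 slide.

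The Sp1 transcript itself was measured at 12.14 to 12.56 (normalized log2 intensity) on the 8 Sp1+/+ arrays and at 9.03 to 10.29 on the 8 Sp1-/- arrays, without overlap. Where its probe lies relative to the removed part of Sp1 was not determined. The populations were checked against marker lists. Of 6 mesoderm markers, 5 fell from Flk1+ cells to HE1 in both genotypes (3.9% of all genes fell in Sp1+/+ and 4.87% in Sp1-/- cells), and 6 of 7 endothelial markers rose at the same step (4.65% and 4.61%). Of 7 blood progenitor markers, 5 rose from HE1 to HE2 in Sp1+/+ cells and 6 in Sp1-/- cells (1.08% and 2.08%). Between 67.0% and 77.1% of the spots of an array were well above background, and no spot was saturated.

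Mouse globin genes are switched on during erythroid development. Primitive red cells of the yolk sac first carry the embryonic chains encoded by Hbb-y, Hbb-bh1 and Hba-x, and definitive red cells carry the adult chains. The beta-type genes are activated in turn by a shared upstream enhancer, the locus control region, with the help of the erythroid factors GATA1, KLF1 and TAL1 and their cofactor LDB1. GATA1 recognizes GATA sequences, and KLF1 recognizes CACCC sequences, which are related to the GC boxes bound by Sp1.

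The beta cluster lies on chromosome 7 and the alpha cluster on chromosome 11 (RefSeq annotation of GRCm38.p6). The promoters of 8 of the 10 genes were at hand. Those of Hbb-bh1 and Hbb-b2 were not used here. For 1 embryonic and 1 adult gene of each cluster, the 250 bases before the annotated transcription start are printed 5′ to 3′ on the gene's own strand, because the results compare these embryonic and adult genes with each other. Capitals mark CACCC and GATAA, or their reverse complements. Hbb-y lies on the minus strand (chr7:103853208-103853457), as does Hbb-bs (chr7:103827929-103828178), and Hba-x (chr11:32276350-32276599) and Hba-a1 (chr11:32283422-32283671) lie on the plus strand.
Hbb-y: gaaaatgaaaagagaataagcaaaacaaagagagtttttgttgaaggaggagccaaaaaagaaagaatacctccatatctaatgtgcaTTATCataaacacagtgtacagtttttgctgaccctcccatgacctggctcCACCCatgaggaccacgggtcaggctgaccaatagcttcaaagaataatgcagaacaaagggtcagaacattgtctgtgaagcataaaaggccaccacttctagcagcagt
Hbb-bs: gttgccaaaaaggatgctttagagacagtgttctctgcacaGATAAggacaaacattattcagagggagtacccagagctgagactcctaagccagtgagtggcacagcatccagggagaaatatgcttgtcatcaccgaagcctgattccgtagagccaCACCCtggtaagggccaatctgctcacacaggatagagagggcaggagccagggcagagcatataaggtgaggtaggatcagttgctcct
Hba-x: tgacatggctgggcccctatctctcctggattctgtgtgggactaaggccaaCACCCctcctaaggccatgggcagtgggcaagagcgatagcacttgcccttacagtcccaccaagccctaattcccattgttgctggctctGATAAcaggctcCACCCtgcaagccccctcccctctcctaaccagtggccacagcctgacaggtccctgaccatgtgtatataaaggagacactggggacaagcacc
Hba-a1: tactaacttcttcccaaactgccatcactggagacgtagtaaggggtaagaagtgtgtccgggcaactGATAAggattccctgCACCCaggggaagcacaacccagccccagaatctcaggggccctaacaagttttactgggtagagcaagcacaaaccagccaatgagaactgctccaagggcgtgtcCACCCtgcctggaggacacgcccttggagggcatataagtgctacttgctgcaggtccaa
Each of these 4 windows held both sequences. The CACCC sequence nearest to the start began 111 bases before it in Hbb-y, 90 in Hbb-bs, 95 in Hba-x and 60 in Hba-a1.

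Over the 8 promoters, each searched on both strands from 250 bases before to 50 bases after the start, CACCC occurred in 6, and it occurred in 57.5% of all 32851 mouse promoters searched the same way. GATAA occurred in 7 of the 8, against 25.4% of all promoters. The GC box GGGCGG occurred in none of the 8, against 35.7% of all. CCAAT occurred in 6, against 37.4%. The promoter without GATAA was that of Hbq1b, and those without CACCC were those of Hbq1b and Hbb-bh2. The window searched for Hbb-bh2 (chr7:103840472-103840771, minus strand) lay mostly inside the gene as annotated (chr7:103838801-103840734). It may therefore not cover the promoter of that gene. These matches are descriptions of the sequence and not sites shown to be bound. The promoters of Hba-a1 and Hba-a2 shared an identical run of 297 bases, and the next longest run shared by any pair was 14 bases, in Hbb-bs and Hbb-bt. The transcripts of Hba-a1 and Hba-a2 are likewise near-identical in mice, so their probes can take up each other's RNA and their values are not independent. Adult beta genes also come as different pairs in different mouse strains. Hbb-bs and Hbb-bt belong to the strain C57BL/6, which the labels name, and Hbb-b2 belongs to the other arrangement, which 129 mice carry, the strain from which E14 cells are commonly said to derive. Which arrangement the cells carry was not determined, and the signal of each adult beta probe may include its relatives.

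**Figure D1:**
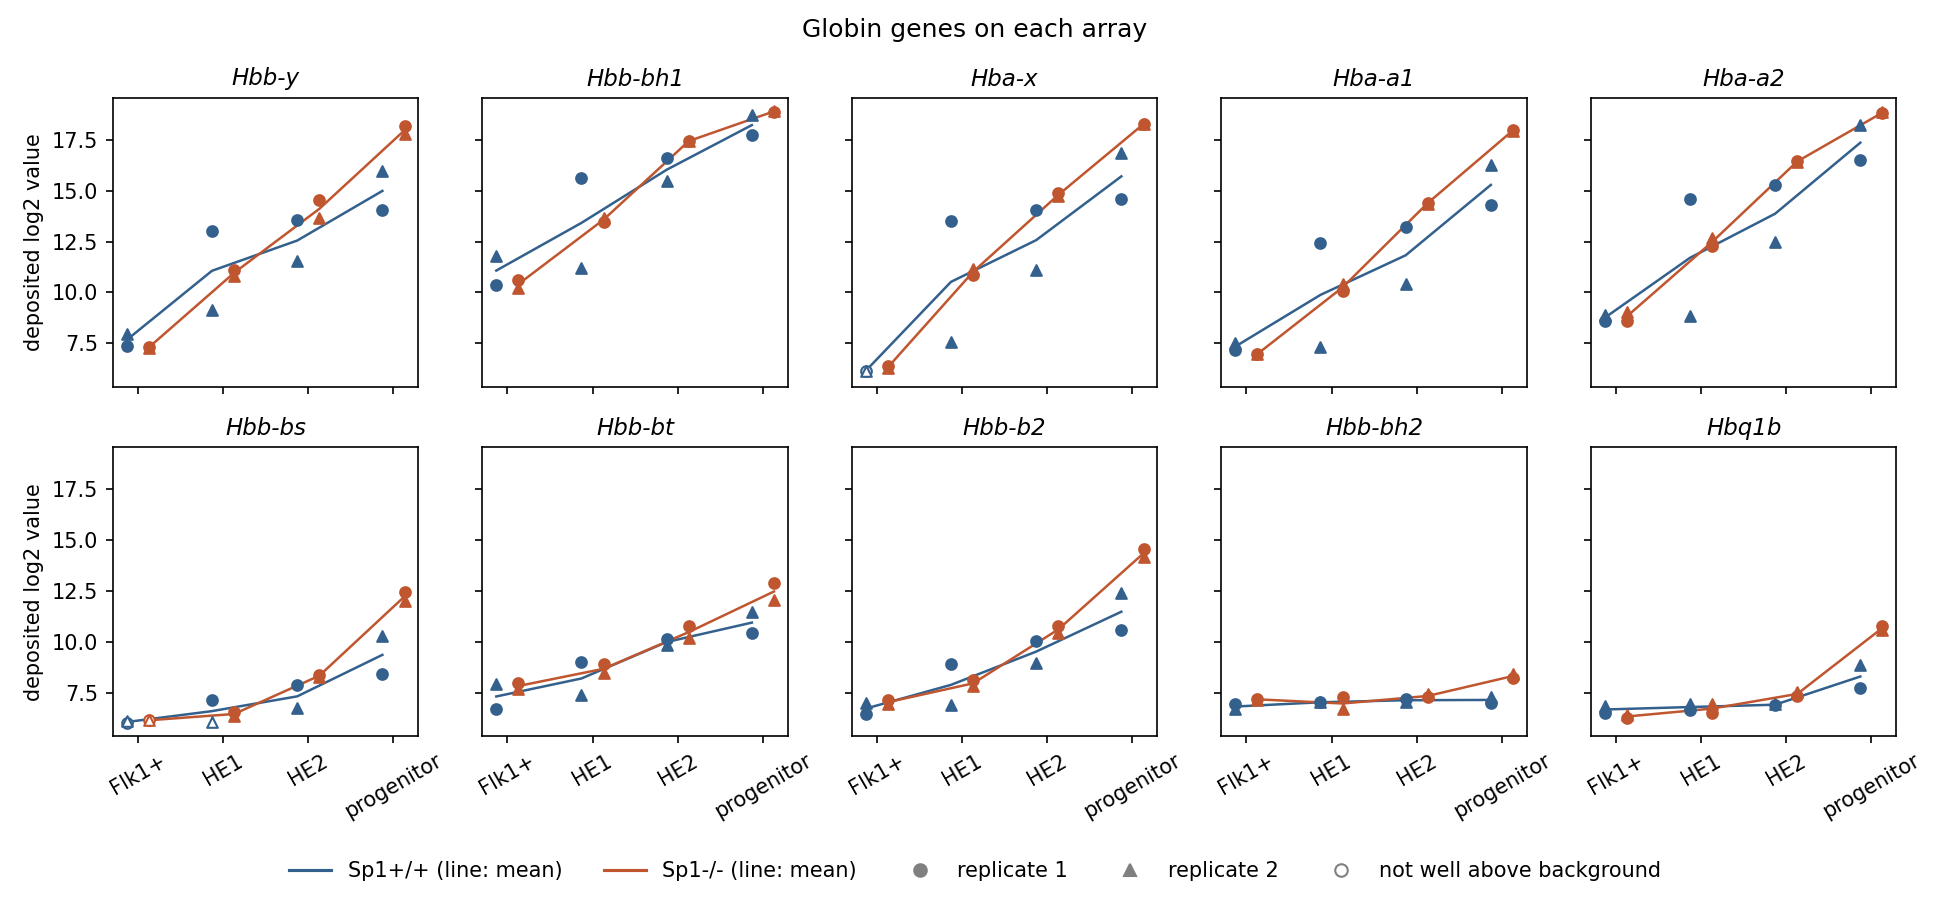
Normalized log2 intensity (vertical axis) of each of the 10 globin genes in Flk1+, HE1, HE2 and progenitor cells, with 1 point per array and genotypes in different colors. Both progenitor arrays of a genotype were above all its earlier arrays for every gene except Hbb-bh2 in Sp1+/+ cells, and for most genes the 2 Sp1+/+ arrays lay farther apart than the 2 Sp1-/- arrays in HE1, HE2 and progenitors.

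Hbb-bh1, the earliest embryonic beta-type chain of primitive erythroid cells, was already far above background in mesoderm. Its Sp1+/+ arrays read 10.37 and 11.78 (Flk1+), 15.62 and 11.22 (HE1), 16.59 and 15.47 (HE2), and 17.75 and 18.70 (progenitors). Its Sp1-/- arrays read 10.61 and 10.21, 13.48 and 13.68, 17.46 and 17.42, and 18.89 and 18.91 in the same order. The progenitor values came close to the top of the scale, which is 18.99 on every array, and the Hbb-bh1 probe ranked 5 and 4 by brightness on the Sp1-/- progenitor arrays. From Flk1+ cells to progenitors it rose 142-fold in Sp1+/+ cells (log2 7.15, SE 1.04, limma adjusted p = 0.000387) and 360-fold in Sp1-/- cells (log2 8.49, SE 1.04, adjusted p = 7.23e-05). Whether values so close to the top limited the measured rise was not tested.

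Hbb-y, the other embryonic beta-type gene, started near background. Its Sp1+/+ values were 7.36 and 7.98 (Flk1+), 13.01 and 9.12 (HE1), 13.57 and 11.53 (HE2), and 14.03 and 15.95 (progenitors). The Sp1-/- arrays gave 7.34 and 7.27, 11.10 and 10.83, 14.56 and 13.66, and 18.16 and 17.78. In Sp1-/- cells each population lay above the one before without overlap, whereas in Sp1+/+ cells the HE1 and HE2 arrays overlapped. The rise over the whole course was 160-fold in Sp1+/+ (log2 7.32, SE 1.06, adjusted p = 0.000361) and 1620-fold in Sp1-/- cells (log2 10.66, SE 1.06, adjusted p = 1.33e-05).

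Hba-x, the embryonic alpha-type chain zeta, had the widest range of the 10 genes. It was not well above background on either Sp1+/+ Flk1+ array (6.14 and 6.16) and then read 13.49 and 7.55 (HE1), 14.06 and 11.08 (HE2), and 14.58 and 16.83 (progenitors). On the Sp1-/- arrays it read 6.38 and 6.27, 10.88 and 11.15, 14.87 and 14.72, and 18.29 and 18.26. The HE1 arrays of Sp1+/+ cells were the ones farthest apart, with replicate 2 close to the mesoderm level and replicate 1 close to that of HE2. From Flk1+ cells to progenitors Hba-x rose at least 752-fold in Sp1+/+ (limma adjusted p = 0.00067), where "at least" refers to a group without signal well above background. In Sp1-/- cells it rose 3960-fold (log2 11.95, SE 1.5, limma adjusted p = 8.61e-05). That rise also started near background, because the lowest values well above background on the Sp1-/- Flk1+ arrays were 6.06 and 5.91.

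The adult alpha genes Hba-a1 and Hba-a2 changed between the same populations as Hba-x. Hba-a1 read 7.16 and 7.52, 12.44 and 7.32, 13.24 and 10.41, and 14.30 and 16.27 in Sp1+/+ Flk1+, HE1, HE2 and progenitor cells. Its Sp1-/- values were 6.97 and 6.98, 10.08 and 10.42, 14.42 and 14.37, and 18.00 and 17.93. In both genotypes it lay above the mesoderm level on every HE2 and progenitor array, and in Sp1+/+ HE1 on 1 array of 2. Hba-a2 read 8.61 and 8.90, 14.58 and 8.82, 15.27 and 12.47, and 16.49 and 18.23 in Sp1+/+ cells. The Sp1-/- arrays read 8.61 and 9.04, 12.26 and 12.70, 16.45 and 16.43, and 18.82 and 18.86, the last pair again near the top of the scale. The whole-course rise of Hba-a1 was 246-fold in Sp1+/+ (log2 7.94, SE 1.33, adjusted p = 0.00101) and 2030-fold in Sp1-/- cells (log2 10.99, SE 1.33, adjusted p = 6.26e-05), and that of Hba-a2 was 389-fold and 1030-fold (adjusted p = 0.000969 and 0.000222).

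The measured rises of the adult beta genes were smaller than those of the embryonic and adult alpha genes. Hbb-bs was not well above background in Flk1+ cells of either genotype (6.00 and 6.11 in Sp1+/+, 6.13 and 6.15 in Sp1-/-). It then read 7.13 and 6.05, 7.88 and 6.75, and 8.43 and 10.28 in Sp1+/+ HE1, HE2 and progenitors, where the second HE1 array was again not well above background. Sp1-/- HE1, HE2 and progenitors gave 6.54 and 6.36, 8.38 and 8.28, and 12.44 and 12.01. Both arrays of a group were thus first well above background in HE2 in Sp1+/+ cells and, at a low level, in HE1 in Sp1-/- cells. This rests on the flag of 1 array and is not an earlier onset in Sp1-/- cells. In HE1 the Sp1-/- minus Sp1+/+ difference was -0.14 (log2, SE 0.53, limma adjusted p = 0.926), and the higher Sp1+/+ array (7.13) exceeded both Sp1-/- arrays. The rise to progenitors was at least 9.85-fold in Sp1+/+ (adjusted p = 0.000803) and at least 67.9-fold in Sp1-/- cells (adjusted p = 4.86e-06).

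Hbb-bt, the partner of Hbb-bs in the cluster, was present above background throughout. Its Sp1+/+ values were 6.69 and 7.93, 9 and 7.39, 10.13 and 9.84, and 10.42 and 11.46, and its Sp1-/- values were 7.96 and 7.69, 8.90 and 8.44, 10.79 and 10.16, and 12.90 and 12.04. Hbb-b2 read 6.43 and 7, 8.89 and 6.87, 10.06 and 8.97, and 10.57 and 12.38 in Sp1+/+ cells, and 7.14 and 6.92, 8.11 and 7.80, 10.77 and 10.44, and 14.54 and 14.15 in Sp1-/- cells. The group means of both genes followed the order of the populations in either genotype. Hbb-bt rose 12.4-fold in Sp1+/+ and 25-fold in Sp1-/- cells over the course (adjusted p = 0.000566 and 6.06e-05), and Hbb-b2 rose 27.1-fold and 159-fold (adjusted p = 0.000252 and 5.87e-06).

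The minor globins stayed low until the progenitor stage. Hbq1b, a theta-type gene of the alpha cluster, read 6.52 and 6.82, 6.65 and 6.93, 6.88 and 6.93, and 7.72 and 8.86 in Sp1+/+ cells and 6.25 and 6.40, 6.49 and 6.94, 7.35 and 7.52, and 10.79 and 10.57 in Sp1-/- cells. It rose 3.07-fold over the course in Sp1+/+ (adjusted p = 0.00172) and 20.5-fold in Sp1-/- cells (adjusted p = 5.92e-07). Hbb-bh2, a poorly expressed gene of the beta cluster, remained between 6.67 and 7.30 on all Sp1+/+ arrays and between 6.67 and 7.41 on the Sp1-/- arrays up to HE2, and read 8.24 and 8.39 in Sp1-/- progenitors. Its change over the course was 0.32 on the log2 scale in Sp1+/+ cells (SE 0.18, adjusted p = 0.277), and it rose 2.21-fold in Sp1-/- cells (log2 1.14, SE 0.18, adjusted p = 0.000445). Its second probe ran from 5.71 to 6.05 and was not well above background on 14 arrays, and read 6.21 and 6.53 on the Sp1-/- progenitor arrays, the only ones on which it was.

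How firmly these changes could be placed depended on the spread between the 2 arrays of a group, which was far larger for the globins than for most genes in Sp1+/+ cells. The median difference between the 2 Sp1+/+ HE1 arrays was 2.96 over the globins (range 0.01 to 5.94) and 0.14 over all genes, and replicate 1 was higher by more than 1 in 8 of the 10 globins. In Sp1+/+ HE2 the median was 1.12 and replicate 1 was higher by more than 1 in 7 globins. In Sp1+/+ progenitors the median was 1.78, and there replicate 2 was higher by more than 1 in 8. The globins thus moved together within an array. In Sp1-/- cells the 4 medians were 0.13, 0.32, 0.15 and 0.18. On the 2 Sp1+/+ HE1 arrays the mean over 22 regulators of globin genes was 11.44 and 10.98. Among them Gata1 read 9.57 and 6.89 and Klf1 8.34 and 6.48. Others went the other way, such as Gata2 (12.21 and 12.46) and Lmo2 (12.36 and 12.87). These genes were named after their values were seen.

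**Figure D2:**
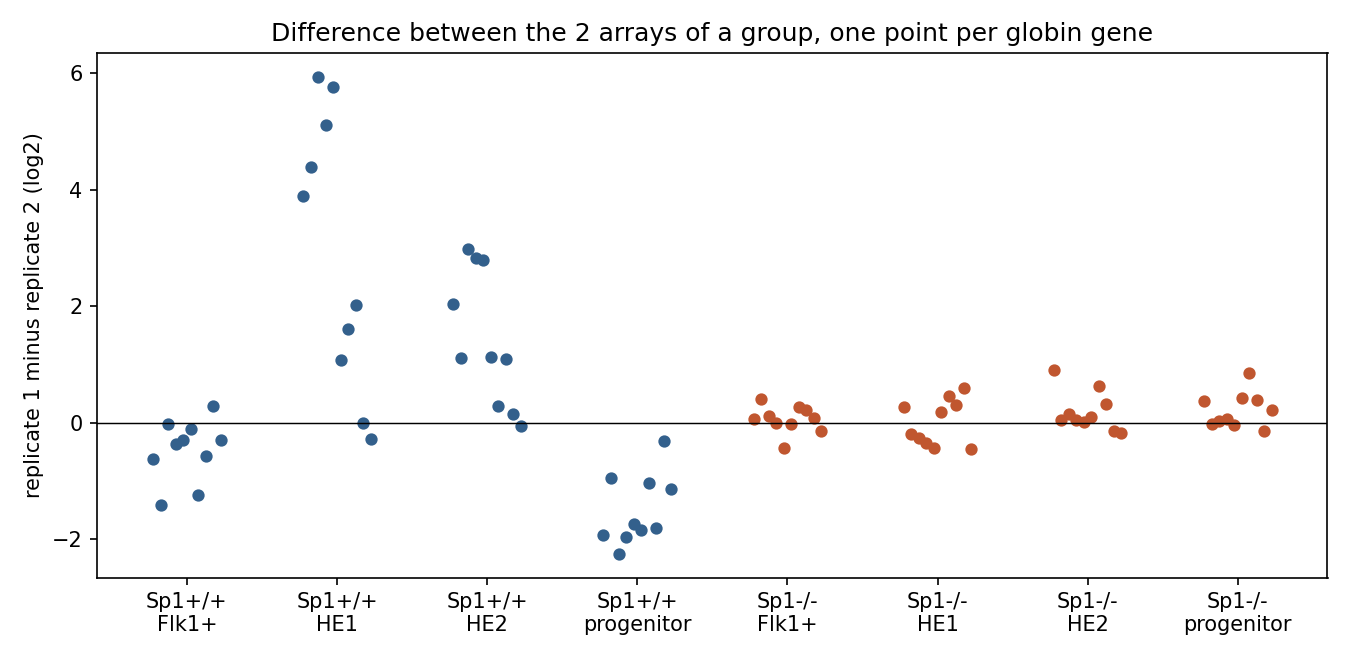
Replicate 1 minus replicate 2 in normalized log2 intensity (vertical axis) for each of the 10 globin genes (points) in each of the 8 groups. In Sp1+/+ HE1 and HE2 most points lie above 0 and in Sp1+/+ progenitors all lie below it, while the Sp1-/- points stay within 1 of 0.

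Markers of other cells also differed between these arrays. In replicates 1 and 2 of Sp1+/+ HE1, the mean over 7 erythroid markers was 7.87 and 7.51 (6 and 3 of them well above background), that over 7 blood progenitor markers 9.48 and 8.88, that over 6 fibroblast and mesenchyme markers 10.02 and 8.77 (6 and 5 well above background), and that over 7 endothelial markers 12.74 and 12.80. In Sp1+/+ HE2 the endothelial mean was 10.95 and 11.89, the fibroblast mean 9.60 and 8.26, and the erythroid mean 8.41 and 7.96. The array with more globin signal was in both populations also higher in the erythroid, blood progenitor, megakaryocyte, macrophage and fibroblast marker means. In Sp1+/+ progenitors the fibroblast mean was instead higher on the array with less globin signal (9.88 in replicate 1 and 9.33 in replicate 2). The part of these cells in the globin values was not tested. In RNA from many cells, fewer cells of a type and less RNA per cell cannot be told apart.

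Next, the changes between consecutive populations were tested within each genotype. Calls required a change of at least 2-fold and a limma p, before adjustment, of at most 0.01, and adjusted p-values are over all 37149 genes. In Sp1+/+ cells the step from Flk1+ to HE1 had 1 globin called, Hbb-y, which rose 10.5-fold (log2 3.39, SE 1.06, adjusted p = 0.0365), where 4.65% of all genes were called as higher. Both HE1 arrays lay above both Flk1+ arrays for 3 globins, Hbb-y, Hba-x and Hbb-bh2, against 25.9% of all genes. The same step in Sp1-/- cells had 2 called, where the background was 4.61%. They were Hbb-y, which rose 12.6-fold (log2 3.66, SE 1.06, adjusted p = 0.0229), and Hba-x, which rose 25.8-fold (log2 4.69, SE 1.5, adjusted p = 0.037). There the arrays did not overlap for 9 globins, all but Hbb-bh2, against 27.7% of all genes. The number called at this step in Sp1-/- cells changed with the arrays in the model, and the share of all genes called was not counted for the other models. With the arrays of the step alone, or the 8 Sp1-/- arrays alone, 5 were called, which were Hbb-y, Hba-x, Hbb-bh1 and the adult genes Hba-a1 and Hba-a2. Over all groups the last 2 had differences of 3.27 and 3.65 (adjusted p = 0.0926 and 0.0818). Hba-x in Sp1+/+ cells rose at least 20.7-fold (log2 4.37, SE 1.5, adjusted p = 0.0564), a bound because neither Flk1+ array was well above background. Its limma p before adjustment, 0.0144, missed the threshold of 0.01.

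From HE1 to HE2, Hbb-bt was the 1 globin called in Sp1+/+ cells (log2 1.79, SE 0.56, adjusted p = 0.0689), where 1.08% of all genes were called as higher. The HE1 and HE2 arrays overlapped for 7 globins and were separate and rising for 3, Hbb-bt, Hbb-b2 and Hbb-bh2, against 26.2% of all genes. Of the Sp1-/- globins, 5 were called against a background of 2.08%. They were Hbb-bh1 (log2 3.86, adjusted p = 0.0242), Hba-a1 (log2 4.15, adjusted p = 0.0517), Hbb-bs (log2 1.88, adjusted p = 0.0303), Hbb-bt (log2 1.80, adjusted p = 0.0449) and Hbb-b2 (log2 2.65, adjusted p = 0.0156). All adult beta genes were thus called at this step in Sp1-/- cells, and the arrays of 9 globins were separate, against 26.3% of all genes.

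From HE2 to progenitors, Hbb-bs (log2 2.04, SE 0.53, adjusted p = 0.0735) and Hbq1b (log2 1.38, SE 0.29, adjusted p = 0.0302) rose in Sp1+/+ cells, 2 of 10 globins against 1.02% of all genes. All globins except Hbb-bh2 had both progenitor arrays above both HE2 arrays, 9 of 10 against 21.1% of all genes. In Sp1-/- cells 5 rose against a background of 2.33%, which were Hbb-y (14.5-fold, adjusted p = 0.0315), Hbb-bs (14.9-fold, adjusted p = 0.000657), Hbb-bt (3.99-fold, adjusted p = 0.0344), Hbb-b2 (13.4-fold, adjusted p = 0.00304) and Hbq1b (9.48-fold, adjusted p = 5.64e-05). The arrays of all 10 were separate there, against 28.7% of all genes. Over the whole course from Flk1+ to progenitors, 9 of 10 globins were called in Sp1+/+ cells (median log2 5.96), all but Hbb-bh2, and 10 of 10 in Sp1-/- cells (median log2 7.90), where 4.31% and 5.7% of all genes were called as higher.

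The counts of these single steps changed when 1 array was left out. The share of all genes called was not counted for these fits, so their counts have no background beside them. Leaving out an array of the groups compared moves the difference itself, and leaving out any array also moves the spread, which 1 model estimated over all groups. From Flk1+ to HE1, the Sp1+/+ count was 6 without Sp1+/+ HE1 replicate 2 and 0 without Sp1+/+ HE1 replicate 1 or any 1 Flk1+ or Sp1-/- array, and the Sp1-/- count was 5 without either Sp1+/+ HE1 array, 0 without any 1 Flk1+ or HE1 array of Sp1-/- cells and 1 without any 1 Flk1+ or progenitor array of Sp1+/+ cells or HE2 or progenitor array of Sp1-/- cells. From HE1 to HE2, the Sp1+/+ count was 7 without Sp1+/+ HE1 replicate 1 and 0 without replicate 2, without either Sp1+/+ HE2 array or without any 1 Sp1-/- array up to HE2. The Sp1-/- count of that step was 8 without either Sp1+/+ HE1 array, 3 without either Sp1-/- Flk1+ array and 0 or 1 without an Sp1-/- HE1 or HE2 array. From HE2 to progenitors, the Sp1+/+ count was 8 without either Sp1+/+ HE1 array, 4 and 1 without Sp1+/+ HE2 replicates 1 and 2, and 0 without Sp1+/+ progenitor replicate 2. The whole-course counts of 9 and 10 were the same without any 1 array.

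The genotypes were then compared within each population. Where a count without 1 array is given, the share of all genes called was not counted. In Flk1+ cells no globin was called, against 1.64% of all genes in either direction, and the differences ran from -0.66 to 0.52 on the log2 scale (limma, 0 with an unadjusted p under 0.05). In HE1 none was called against 2.09% (0 under 0.05), but without Sp1+/+ HE1 replicate 1 or 2 there were 3 and 1. With all arrays, both Sp1-/- arrays lay between the 2 Sp1+/+ arrays for 8 of the 10 globins. In HE2 none was called against 1.95% (0 under 0.05), or 2 without either Sp1+/+ HE1 array, but all 10 differences were positive, with a median of 1.25 and a range of 0.21 to 2.57 against a median of 0.01 over all genes. Both Sp1-/- HE2 arrays lay above both Sp1+/+ HE2 arrays for all 10 globins, which held for 24.1% of all genes. The adult alpha genes had the largest of these differences, 2.57 for both (SE 1.33 and 1.43, adjusted p = 0.353 and 0.398).

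**Figure D3:**
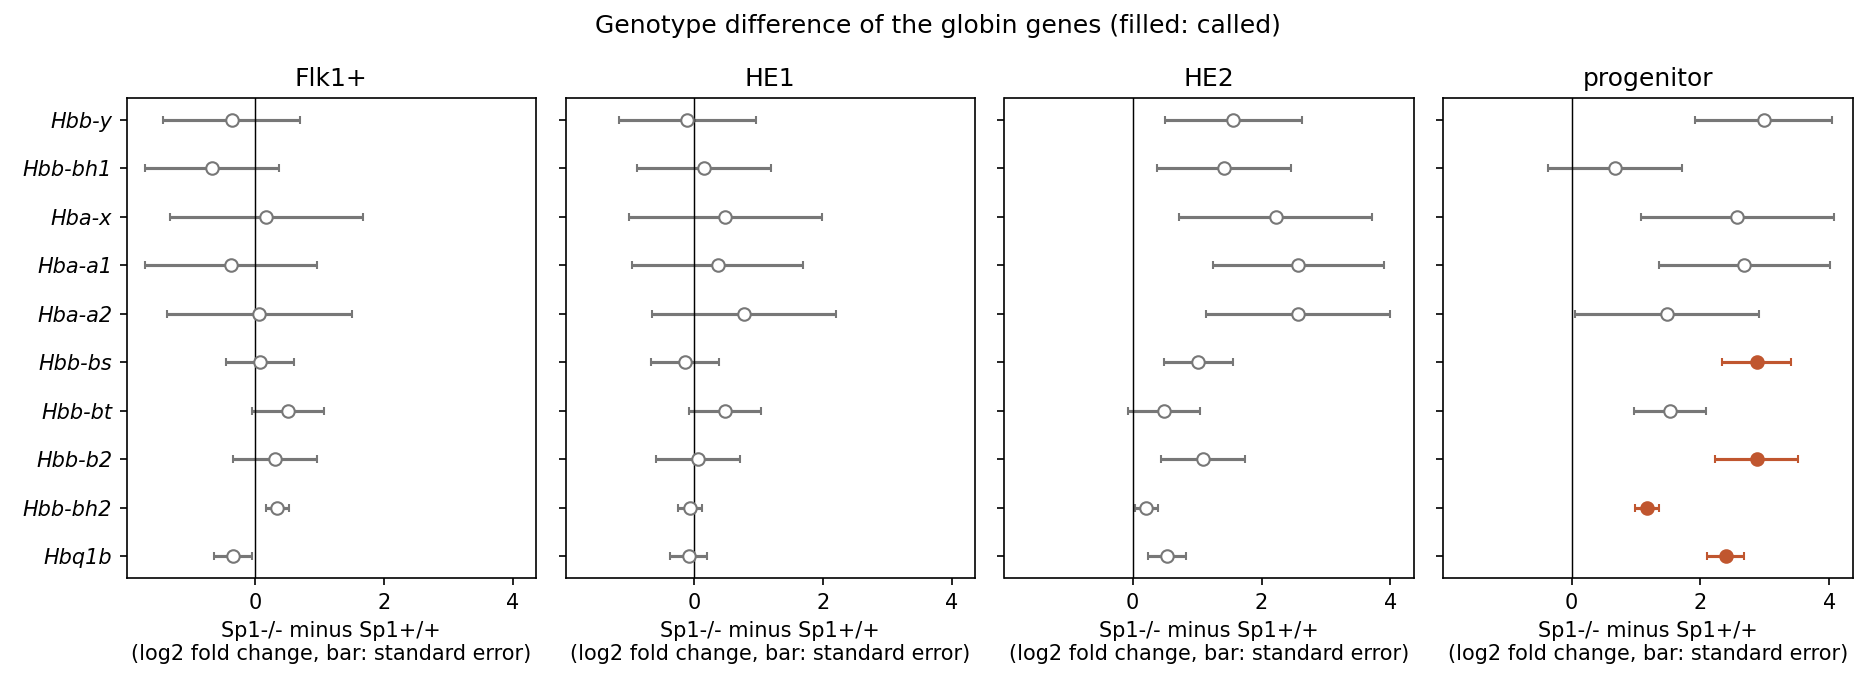
Difference between the genotypes (Sp1-/- minus Sp1+/+, log2 fold change on the horizontal axis, bars are standard errors) of the 10 globin genes in each population, with called genes filled. In progenitors all 10 points lie to the right of 0 and 4 of them, Hbb-bs, Hbb-b2, Hbb-bh2 and Hbq1b, were called, while the embryonic and adult alpha genes have the widest bars.

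In progenitors 4 of 10 globins were higher in Sp1-/- cells by the call rule, against 1.51% of all genes. Hbq1b was 5.24-fold higher (log2 2.39, SE 0.29, adjusted p = 0.00034), Hbb-bs 7.31-fold (log2 2.87, SE 0.53, adjusted p = 0.00457), Hbb-b2 7.31-fold (log2 2.87, SE 0.65, adjusted p = 0.0142) and Hbb-bh2 2.26-fold (log2 1.17, SE 0.18, adjusted p = 0.00138). By the mean of its 2 probes Hbb-bh2 differed by 0.84 and passed no longer, because the difference was under 2-fold. With the scanner's own processed signals as input, Hbb-bs (3.20) and Hbb-b2 (2.82) were not called. Hbb-b2 also missed the threshold without Sp1+/+ progenitor replicate 1 (log2 1.96).

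The other 6 globins were not called in progenitors, although both Sp1-/- arrays lay above both Sp1+/+ arrays for all 10, against 34.1% of all genes. Hbb-y differed by 2.98 (SE 1.06, adjusted p = 0.0964), Hba-a1 by 2.68 (SE 1.33, adjusted p = 0.238), Hba-x by 2.57 (SE 1.5, adjusted p = 0.325), Hbb-bt by 1.53 (SE 0.56, adjusted p = 0.105), Hba-a2 by 1.48 (SE 1.43, adjusted p = 0.579) and Hbb-bh1 by 0.67 (SE 1.04, adjusted p = 0.752). With these errors a difference of several fold in either direction could not be told from the spread between arrays for the alpha genes. The 2 smallest, Hbb-bh1 and Hba-a2, are also those whose Sp1-/- values came closest to the top of the scale. Whether this limited their differences was not tested. When either Sp1+/+ HE1 array was left out, which changes the estimated spread and not the differences, Hbb-y, Hba-a1 and Hbb-bt were called as well, 7 of 10 in all. In a model of only the progenitor arrays, Hbb-y and Hba-a1 also passed the call rule. The share of all genes called was counted for neither alternative, so these calls have no background beside them. With all arrays, the median standard error was 0.85 over the globins and 0.14 over all genes.

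Whether the course itself differed between the genotypes was tested as the difference of the steps. Shares of all genes called are given for the model of all arrays and were not counted without 1 array. No globin was called for the step from Flk1+ to HE1 (1.6% of all genes called in either direction) or from HE1 to HE2 (0.743%), and at neither step was an unadjusted limma p under 0.05, but 1 and 5 were called at these steps without Sp1+/+ HE1 replicates 1 and 2, respectively. For the step from HE2 to progenitors 1 was called against 0.681% of all genes called as higher. This was Hbq1b, whose rise was larger by 1.86 on the log2 scale in Sp1-/- cells (SE 0.41, adjusted p = 0.0788). Over the whole course Hbq1b (2.73, SE 0.41, adjusted p = 0.00438) and Hbb-bs (2.79, SE 0.75, adjusted p = 0.0609) were called, 2 of 10 against 1.45%. Hbb-bs was not well above background in Flk1+ cells of either genotype, so both of its rises are bounds. Its value of 2.79 is the progenitor difference of 2.87 less a Flk1+ difference of 0.08 at background, and it does not measure how the 2 courses differed. For Hbb-y the estimate was larger and its error wider (3.34, SE 1.5, adjusted p = 0.271), and it was not called. The whole-course count was 4 without either Sp1+/+ HE1 array, and 1 without Sp1+/+ Flk1+ replicate 2, progenitor replicate 1 of either genotype or either Sp1-/- Flk1+ array. The count from HE2 to progenitors was 3 without Sp1+/+ progenitor replicate 2, and 2 without HE2 replicate 2 of either genotype or Sp1-/- progenitor replicate 1.

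To follow the balance of embryonic and adult chains, the mean log2 value of the adult genes was subtracted from that of the embryonic genes on each array. Its absolute size depends on the probes and is not a ratio of mRNAs, so it is compared between arrays only and carries no test. For the beta-type genes (Hbb-y and Hbb-bh1 minus Hbb-bs, Hbb-bt and Hbb-b2) the Sp1+/+ arrays gave 2.49 and 2.87 (Flk1+), 5.97 and 3.40 (HE1), 5.72 and 4.98 (HE2), and 6.08 and 5.95 (progenitors). The Sp1-/- arrays gave 1.90 and 1.82, 4.44 and 4.72, 6.03 and 5.91, and 5.23 and 5.61. In both genotypes the balance had shifted towards the embryonic genes by HE2. From Flk1+ cells to progenitors it changed by 3.34 in Sp1+/+ and 3.56 in Sp1-/- cells, and with the scanner's processed signals by 1.39 and 2.75. The Flk1+ end of this change includes Hbb-bs at background in both genotypes. From HE2 to progenitors it changed by 0.67 in Sp1+/+ cells and by -0.55 in Sp1-/- cells, with separate arrays in both. The Sp1-/- change depended on the genes compared. Against Hbb-bs, Hbb-bt and Hbb-b2 it was -0.03, 1.87 and 0.12 with Hbb-y. With Hbb-bh1, which is near the top of the scale, it was -2.44, -0.54 and -2.28. In Sp1+/+ cells every single pair rose, but the arrays were separate only against Hbb-bt.

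**Figure D4:**
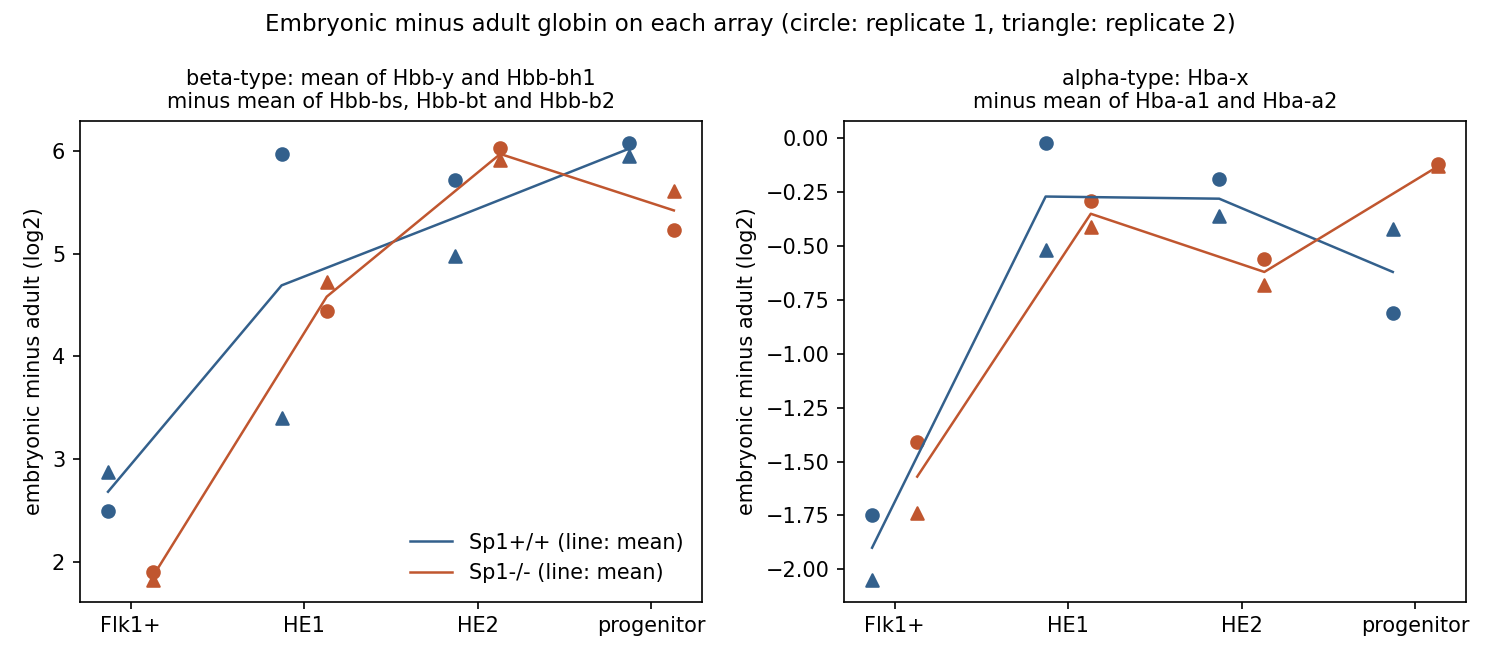
Embryonic minus adult globin signal (difference of mean log2 values, vertical axis) in the 4 populations, for beta-type and alpha-type genes, with 1 point per array and genotypes in different colors. Both differences were lowest in Flk1+ cells, and in progenitors the Sp1-/- arrays lay below the Sp1+/+ arrays for the beta-type genes and above them for the alpha-type genes. The sign of both of these genotype differences in progenitors depended on the single genes compared.

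In progenitors the beta-type balance was 6.02 ± 0.09 (SD, n = 2) in Sp1+/+ and 5.42 ± 0.27 in Sp1-/- cells, a difference of -0.60 without overlap of the arrays. Its sign depended on the genes compared. With Hbb-y as the embryonic gene the difference between genotypes was 0.11 against Hbb-bs, 1.45 against Hbb-bt and 0.11 against Hbb-b2. With Hbb-bh1 it was -2.20, -0.85 and -2.19 in the same order, and Hbb-bh1 is the gene near the top of the scale. The embryonic-to-adult balance of the beta-type genes had no single direction between the genotypes.

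For the alpha-type genes (Hba-x minus the mean of Hba-a1 and Hba-a2) the Sp1+/+ arrays gave -1.75 and -2.05, -0.02 and -0.52, -0.19 and -0.36, and -0.81 and -0.42. The Sp1-/- arrays gave -1.41 and -1.74, -0.29 and -0.41, -0.56 and -0.68, and -0.12 and -0.13. After a shift towards Hba-x at HE1, the balance varied within less than 1 over HE1, HE2 and progenitors. The change from Flk1+ cells to progenitors was 1.28 in Sp1+/+ and 1.45 in Sp1-/- cells, or 5.33 and 3.43 with the scanner's processed signals. Its Flk1+ end rests on Hba-x values at background in Sp1+/+ cells and close to it in Sp1-/- cells. In progenitors the balance was -0.62 ± 0.28 (SD, n = 2) in Sp1+/+ and -0.13 ± 0.01 in Sp1-/- cells, a difference of 0.49. Its sign depended on the adult gene. It was -0.11, with overlapping arrays, when Hba-x was set against Hba-a1, and 1.09 against Hba-a2. Hba-a2 is the alpha gene closest to the top of the scale in Sp1-/- progenitors, and whether this limited its values was not tested.

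Among themselves the globins had like profiles over the 16 arrays. Pearson's r ran from 0.584 to 0.994 over the 45 pairs, with a median of 0.931, a description over arrays that share populations, slides and replicates. Outside the globins, the genes most like Hbb-bh1 among 20092 genes with a symbol were Nsmaf (r = 0.979), Epb41, a protein of the red cell skeleton (0.977), Trmt2b (0.968), Itga4, an integrin of blood cells (0.968), and Gucy1a1 (0.966). For Hbb-bt, the adult beta gene with the highest mean signal, they were Gp9, a platelet glycoprotein (0.968), Cep20 (0.966), Tbc1d10c (0.964), Dhrs11 (0.964) and Grap2 (0.961).

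Genes that act on globins or with them were examined as 3 lists. Of 22 regulators of globin genes, 8 rose and 1 fell from Flk1+ cells to progenitors in Sp1+/+ cells (median log2 0.56), where 4.31% of all genes rose and 4.28% fell. In Sp1-/- cells 9 rose and 1 fell (median 0.69), against 5.7% and 6.59%. The erythroid and megakaryocytic repressor Gfi1b rose by 3.87 and 4.41 (adjusted p = 9.07e-06 and 1.96e-06) and Nfe2, which binds the locus control region, by 4.70 and 5.45 (adjusted p = 5.02e-05 and 1e-05). Between the genotypes 1 of the 22 was called in progenitors, with a median of 0.12, a share near the 4.11% of all genes called in either direction and no result about the list. The gene was Klf1, the erythroid activator of adult beta-globin, which read 11.05 and 12.46 in Sp1+/+ and 13.66 and 13.65 in Sp1-/- progenitors (log2 1.90, SE 0.59, adjusted p = 0.0574). Ldb1, which bridges enhancer and promoter, read 12.26 and 12.35 against 13.14 and 13.25 (log2 0.89, SE 0.12, adjusted p = 0.000592) and was under 2-fold.

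The 8 enzymes of heme synthesis, which makes the prosthetic group of hemoglobin, were all called as higher in Sp1-/- progenitors (median log2 1.63) against 1.51% of all genes, where none was called in the earlier populations. Ppox was higher by 1.95 (SE 0.15, adjusted p = 1.78e-05), Uros by 2.27 (SE 0.23, adjusted p = 0.000112), Alad by 1.74 (SE 0.19, adjusted p = 0.000195) and Urod by 1.11 (SE 0.13, adjusted p = 0.000279). Their rise from HE2 to progenitors was larger in Sp1-/- cells for 6 of the 8 against 0.681% of all genes, with a median difference of 1.48. Of 14 hemoglobin partners and red cell proteins that were tested, 11 were higher in Sp1-/- progenitors and 1 was lower (median 1.69), against 1.51% and 2.6% of all genes. Slc4a1, the anion exchanger band 3, was higher by 4.57 (SE 0.34, adjusted p = 1.42e-05), Rhag, a partner of the Rh proteins, by 1.68 (SE 0.14, adjusted p = 2.64e-05) and Slc25a37, the mitochondrial iron importer mitoferrin, by 2.57 (SE 0.23, adjusted p = 4.46e-05). Cd59a, a complement inhibitor, was lower by 2.52 (SE 0.23, adjusted p = 4.93e-05), and it was lower by the call rule in the other 3 populations too. Ahsp, the alpha-hemoglobin stabilizing protein, was on the list but not among the genes tested.

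Markers of other cells moved with the genotype in the same progenitor samples, where 1.51% of all genes were called as higher and 2.6% as lower. The erythroid mean was 8.93 and 9.78 in Sp1+/+ and 11.56 and 11.63 in Sp1-/- progenitors, and 6 of 7 markers were called as higher. The megakaryocyte mean was 9.80 and 10.15 against 11.38 and 11.09, with 5 of 6 higher, and the macrophage mean 8.91 and 9.26 against 9.84 and 9.84, with 2 of 5 higher. In the other direction, the endothelial mean was 10.31 and 9.21 against 8.17 and 8.45, with 2 of 7 lower, and the fibroblast and mesenchyme mean 9.88 and 9.33 against 7.40 and 7.47, with 4 of 6 lower. The Sp1+/+ progenitor array with the lower globin values (replicate 1) was also the one with the higher endothelial and fibroblast means. In Sp1+/+ progenitors all 6 fibroblast markers were well above background in replicate 1 and 5 in replicate 2. The part of these cells in the globin differences between genotypes was not tested.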

How the data were processed

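The deposited table of normalized log2 values was used, which the authors made from the scanner's intensities by normexp background correction and quantile normalization in limma. Their supplementary methods give an offset of 16, but the deposited log2 values were matched to within 0.005 by an offset of 50 and not by 16 (largest distance 1.63). The deposited scanner files hold the intensity of each spot, its local background, detection flags and target names, and served for the flags and the alternatives. Control and outlier spots were left out, spots of a probe were averaged, and the brightest probe of a gene with a log2 value of 6 or more on at least 1 array was kept (37149 genes). Accessions were named through RefSeq (20869 of 37932 target names matched by accession). A limma model (limma 3.58.1, R 4.3.3) with 1 coefficient for each of the 8 groups and 8 residual degrees of freedom gave all contrasts, with Benjamini-Hochberg adjustment over all genes, and was tested on simulated data. Calls required an unadjusted p of at most 0.01 and a change of at least 2-fold. A fold against a group not well above background is a bound against the higher of the probe's own signal and the lowest signal well above background. The globin genes, the lists, the tests and the alternatives were chosen with earlier results of these data known. Named genes are the 10 globins, up to 4 genes per list and comparison with the smallest unadjusted p, and the 5 genes most like Hbb-bh1 and Hbb-bt by Pearson's r. The alternatives were other background corrections and normalizations, other filters, a replicate block, an adjusted threshold, fewer arrays in the model, each array left out in turn, and single pairs of embryonic and adult genes.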

Additional observations from a re-analysis of the deposited data

Results flagged for a closer look

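Over the whole course from Flk1+ cells to progenitors, the rise of Hbq1b was larger in Sp1-/- than in Sp1+/+ cells by 2.73 on the log2 scale (SE 0.41, limma adjusted p = 0.00438). From HE2 to progenitors alone it was larger by 1.86 (SE 0.41, adjusted p = 0.0788). Both were singled out because the difference of the rises itself passed the call rule. For Hbb-bs the same calculation over the whole course gave 2.79 (SE 0.75, adjusted p = 0.0609) and passed the call rule, but Hbb-bs was not well above background in Flk1+ cells of either genotype. Its rises are lower bounds, and the value reflects the progenitor difference of 2.87 rather than a measured difference in course. A shift that a slide gives to all of its arrays cancels in these differences of rises. A slide effect that varied between populations cannot be told apart from genotype. Groups of 2 arrays are too small for a check of single outlying arrays.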

How the results depend on the processing

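With 2 arrays per group, the spread of the Sp1+/+ HE1 arrays limits what could be called. The share of all genes called was not counted for the alternatives below. For the counts of called globins, an offset of 16 gave 2 (Flk1+ to HE1) and 0 (HE1 to HE2) in Sp1+/+ cells, 3 (HE1 to HE2) in Sp1-/- cells, and 2 and 1 for the difference of the steps from HE2 to progenitors and over the whole course. No background correction gave 2 for Flk1+ to HE1 in Sp1+/+ cells and 2 for the difference from HE2 to progenitors. Processed signals from the scanner, set to the 75th percentile of each array, gave 2 between genotypes in progenitors, 2, 0 and 1 for the 3 steps of Sp1+/+ cells, 1 for HE1 to HE2 in Sp1-/- cells, and 0 and 1 for the differences from HE2 to progenitors and over the whole course. An adjusted threshold of 0.05 gave 0 for HE1 to HE2 and 1 for HE2 to progenitors in Sp1+/+ cells, and 0 and 1 for those 2 differences. A model of only the arrays compared gave 0, 0 and 1 for the steps of Sp1+/+ cells, 5, 8 and 9 for those of Sp1-/- cells, and 4 for the whole-course difference, and a model of the 8 arrays of 1 genotype, chosen after the data were seen, gave 0, 0 and 1, and 5, 8 and 9. The filters, the mean over probes and an offset of 50 kept every count within 1.5 times.

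The labels do not say that a replicate number marks a shared culture, and the replicate numbers were not taken as a pairing. The replicate differences of 2 groups correlated between -0.17 and 0.50 over 28 pairs of groups, of which 10 were over 0.1. The 0.50 was that of Sp1+/+ HE1 with Sp1+/+ HE2, so a shared source of these arrays was not tested. With the replicate number as a block, 0 globins were called for HE1 to HE2 in Sp1+/+ cells and 1 for Flk1+ to HE1 in Sp1-/- cells. A block for slide could not be fitted, because slide and genotype coincide.

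With each array left out in turn, the counts between genotypes ran from 0 to 3 (HE1), 0 to 2 (HE2) and 3 to 7 (progenitors). Those of the steps ran from 0 to 6, 0 to 7 and 0 to 8 in Sp1+/+ cells and from 0 to 5, 0 to 8 and 4 to 7 in Sp1-/- cells. The difference of the steps gave 0 to 1 (Flk1+ to HE1), 0 to 5 (HE1 to HE2), 1 to 3 (HE2 to progenitors) and 1 to 4 (whole course). Single genes changed direction without 1 array. Without Sp1+/+ HE1 replicate 2, Hbb-bh1 was lower in Sp1-/- HE1 by the call rule (-2.04), and its difference ran from -2.04 to 2.36. In Sp1+/+ cells Hba-a1 ran from -0.02 to 5.10 for Flk1+ to HE1, and for HE1 to HE2 Hbb-y ran from -0.46 to 3.43, Hba-x from -0.92 to 5.02, Hba-a1 from -0.62 to 4.5 and Hba-a2 from -0.71 to 5.05. The difference of that step between genotypes ran from -0.28 to 3.61 for Hbb-y, -0.95 to 3.45 for Hbb-bh1, -1.24 to 4.70 for Hba-x, -0.36 to 4.76 for Hba-a1 and -1.09 to 4.67 for Hba-a2, and that from HE2 to progenitors ran from -2.49 to 0.31 for Hba-a2, the highest without Sp1+/+ HE2 replicate 2.

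The change of the embryonic minus adult balance from Flk1+ cells to progenitors, in Sp1+/+ and Sp1-/- cells, was 2.86 and 3.22 (beta-type) and 1.99 and 1.97 (alpha-type) with an offset of 16, 1.39 and 2.75, and 5.33 and 3.43 with the processed signal. Without background correction it was 3.03 (beta-type, Sp1+/+) and 1.82 and 1.79 (alpha-type). For single pairs it was 4.02 and 4.58 (Hbb-y, Hbb-bs), 3.69 and 6.02 (Hbb-y, Hbb-bt), 2.56 and 3.35 (Hbb-y, Hbb-b2), 3.85 and 2.41 (Hbb-bh1, Hbb-bs), 2.39 and 1.18 (Hbb-bh1, Hbb-b2), 1.61 and 0.96 (Hba-x, Hba-a1) and 0.95 and 1.94 (Hba-x, Hba-a2), and 3.85 in Sp1-/- cells for Hbb-bh1 and Hbb-bt. Between the genotypes in progenitors it was 0.11, 1.45 and 0.11 with Hbb-y and -2.20, -0.85 and -2.19 with Hbb-bh1 (against Hbb-bs, Hbb-bt and Hbb-b2), and -0.11 and 1.09 with Hba-x (against Hba-a1 and Hba-a2). The cause of these changes was not tested. The median of all genes moved by more than 0.1 only with the processed signal (-0.139 for Flk1+ to HE1 in Sp1+/+, 0.128 between genotypes in HE1, and 0.109 and 0.12 for the differences of the steps from Flk1+ to HE1 and over the whole course).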
